A study of Rattus norvegicus with 65 samples.

Results

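The genes described here carry peptides to the cell surface for T cells to read. They were chosen by name as 10 genes of antigen presentation and comprise 2 genes of the class I pathway (B2m and RT1-N3), 5 of the class II pathway (RT1-DMa, RT1-DMb, RT1-Da, RT1-Ba and Cd74) and 3 that make or transport class I peptides (Tap1, Tap2 and Psmb8). All 10 were on the array, through 13 of its 15866 probe sets and among its 10411 named genes, so no listed gene was absent. RT1 is the name of the rat major histocompatibility complex.

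Class I molecules sit on nearly all nucleated cells and show peptides cut from the cell's own proteins, whereas class II molecules are made mainly by dendritic cells, macrophages and B cells and show peptides taken up from outside. B2m encodes beta-2-microglobulin, the light chain shared by class I molecules, and RT1-N3 is a non-classical class I heavy chain gene. In the class I route the immunoproteasome subunit Psmb8 helps cut peptides and the Tap1 and Tap2 proteins form the transporter that moves them into the endoplasmic reticulum. In the class II route RT1-Da and RT1-Ba encode alpha chains of the surface molecules, Cd74 is the invariant chain that occupies their groove during transport, and the products of RT1-DMa and RT1-DMb form the exchange factor that helps load the final peptide. Interferon gamma is known to raise both sets of genes.

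The tumors were carcinogen-induced rat mammary tumors carried from a first tumor through 5 generations of syngeneic hosts, which are animals of the same inbred strain. Each line of descent is a numbered transplant series, and there were 11 series, numbered 10, 13, 17, 19, 25L, 25R, 32, 33, 34, 36 and 42. The arrays comprised 11 each of transplants 1 to 4, 10 of transplant 5 (that of series 10 was not analysed here) and 11 primary tumors, or 65 in all. The carcinogen, the rat strain, the sex and age of the hosts and the site of transplantation are not given in the sources used here, and the labels do not say whether 25L and 25R came from 1 animal. All transplants of a series descend from 1 tumor, so they sample that tumor's line and not separate tumors.

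Array medians of the deposited intensities lay between 143 and 176 apart from 1 array, the transplant 5 tumor of series 32, whose median of 96.1 was scaled up by a factor of 1.69. After scaling, that array had the highest summed level of all 65 for 8 of the 11 gene lists used here. These were the class I and class II members, the further class II, processing and interferon-related genes, and the markers of macrophages and dendritic cells, of T and NK cells and of B cells. The B cell list held only 1 tested gene, Cxcr5. The lists without their highest level in that array were the processing members, the further class I genes and the epithelial markers. Of the epithelial markers, Epcam lay at 9.46 or above on the log2 scale in every array of 8 series and reached down to 5.58 in series 32 and to the measurement floor of 5.31 in series 34. In series 42 it was at the floor on 4 of 6 arrays and never above 6.00, 5 of 14 epithelial genes were at the floor on every array, and the same series held the highest median of summed macrophage and dendritic marker intensity, 19780. Tumors were profiled as tissue pieces, and a lower level cannot be split into fewer cells of a type or less RNA per cell.

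Of the 10 genes, 9 had a promoter window in the RefSeq rat assembly GRCr8 (RT1-DMb did not match), and 6 windows are printed because the class I and processing genes differ from the class II genes in them. Capitals mark each match, on either strand, to ATTGG, the core of the CCAAT or Y box (CCAAT when read on the printed strand), and to GAAA, any 2 bases and GAAA again, the core of the interferon-stimulated response element (TTTC, 2 bases and TTTC when read on the printed strand). The windows are RT1-N3 at chr20:2666239-2666538 (plus strand), B2m at chr3:129549080-129549379 (plus), Tap2 at chr20:4652247-4652546 (minus), Psmb8 at chr20:4656982-4657281 (minus), RT1-Da at chr20:4515165-4515464 (plus) and RT1-Ba at chr20:4576807-4577106 (plus), each written 5′ to 3′ along its gene.
RT1-N3: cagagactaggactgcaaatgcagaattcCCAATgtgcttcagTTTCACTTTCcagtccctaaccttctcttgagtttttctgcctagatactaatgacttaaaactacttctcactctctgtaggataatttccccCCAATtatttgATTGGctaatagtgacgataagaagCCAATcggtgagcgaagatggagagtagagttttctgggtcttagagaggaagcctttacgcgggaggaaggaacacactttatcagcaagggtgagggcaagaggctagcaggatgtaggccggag
B2m: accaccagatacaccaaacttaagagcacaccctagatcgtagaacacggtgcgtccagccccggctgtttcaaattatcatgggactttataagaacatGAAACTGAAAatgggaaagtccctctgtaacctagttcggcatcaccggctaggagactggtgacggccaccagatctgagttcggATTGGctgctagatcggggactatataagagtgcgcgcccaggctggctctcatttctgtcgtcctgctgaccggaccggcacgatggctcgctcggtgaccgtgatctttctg
Tap2: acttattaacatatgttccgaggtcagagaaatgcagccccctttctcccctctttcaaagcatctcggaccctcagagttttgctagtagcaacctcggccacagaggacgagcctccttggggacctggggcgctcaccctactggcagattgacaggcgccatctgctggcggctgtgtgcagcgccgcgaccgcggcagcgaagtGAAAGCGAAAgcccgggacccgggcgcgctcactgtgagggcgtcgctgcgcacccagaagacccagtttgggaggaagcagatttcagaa
Psmb8: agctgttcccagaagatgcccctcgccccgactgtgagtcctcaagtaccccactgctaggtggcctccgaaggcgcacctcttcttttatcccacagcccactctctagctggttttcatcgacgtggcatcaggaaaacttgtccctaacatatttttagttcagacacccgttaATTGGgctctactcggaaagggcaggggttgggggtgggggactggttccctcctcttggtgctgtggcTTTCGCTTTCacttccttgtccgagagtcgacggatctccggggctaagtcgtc
RT1-Da: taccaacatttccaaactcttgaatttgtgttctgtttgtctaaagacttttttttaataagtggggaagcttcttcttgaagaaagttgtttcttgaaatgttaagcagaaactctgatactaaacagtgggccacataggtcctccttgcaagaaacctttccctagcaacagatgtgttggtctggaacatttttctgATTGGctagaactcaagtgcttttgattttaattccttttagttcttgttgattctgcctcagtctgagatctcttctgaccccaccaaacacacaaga
RT1-Ba: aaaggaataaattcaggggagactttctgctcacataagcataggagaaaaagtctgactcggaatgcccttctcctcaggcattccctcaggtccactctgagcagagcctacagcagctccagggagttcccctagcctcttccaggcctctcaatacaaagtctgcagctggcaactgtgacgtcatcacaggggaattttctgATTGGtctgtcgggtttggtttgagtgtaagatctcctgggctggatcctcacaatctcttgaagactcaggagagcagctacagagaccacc

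The interferon-stimulated response element core stood in the windows of both class I genes and of all 3 processing genes, Tap1 included, and in none of the 4 class II windows. Among 33469 rat promoter windows of the same length, 3.92% held them. ATTGG stood in 7 of the 9 windows (RT1-N3, B2m, Psmb8, RT1-DMa, RT1-Da, RT1-Ba and Cd74), against 37.5% of all windows. The class II X box was looked for as GCNAC followed after 10 to 35 bases by ATTGG, an arrangement written down after the sequences had been seen. It was found in B2m, RT1-DMa, RT1-Da and RT1-Ba and in 3.42% of all windows. These are letter matches and say nothing about whether a factor binds there. On chromosome 20, RT1-Da, RT1-Ba, Tap2, Psmb8, Tap1, RT1-DMb and RT1-DMa follow each other in that order with at most 2 protein-coding genes between neighbours, RT1-N3 lies 107 protein-coding genes away from RT1-Da, B2m is on chromosome 3 and Cd74 on chromosome 18.

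The first question was whether the genes differ between transplants and the primary tumors they came from. Every value below is the log2 of the scaled intensity, with a floor at 5.31, and each difference comes from 1 limma model in which series is a factor beside generation and each tumor is thus set against its own line. All 10 genes had a positive difference, as did 53% of the 8499 genes tested, and 2 of 10 passed an adjusted p of 0.05, both upward. Of all genes tested, 9.5% passed, and 4.44% passed upward. The median difference over the 10 genes was 0.33, against 0.01 over all genes. By class, the median was 0.28 for the class I genes, 0.47 for the class II genes and 0.23 for the processing genes.

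**Figure D1:**
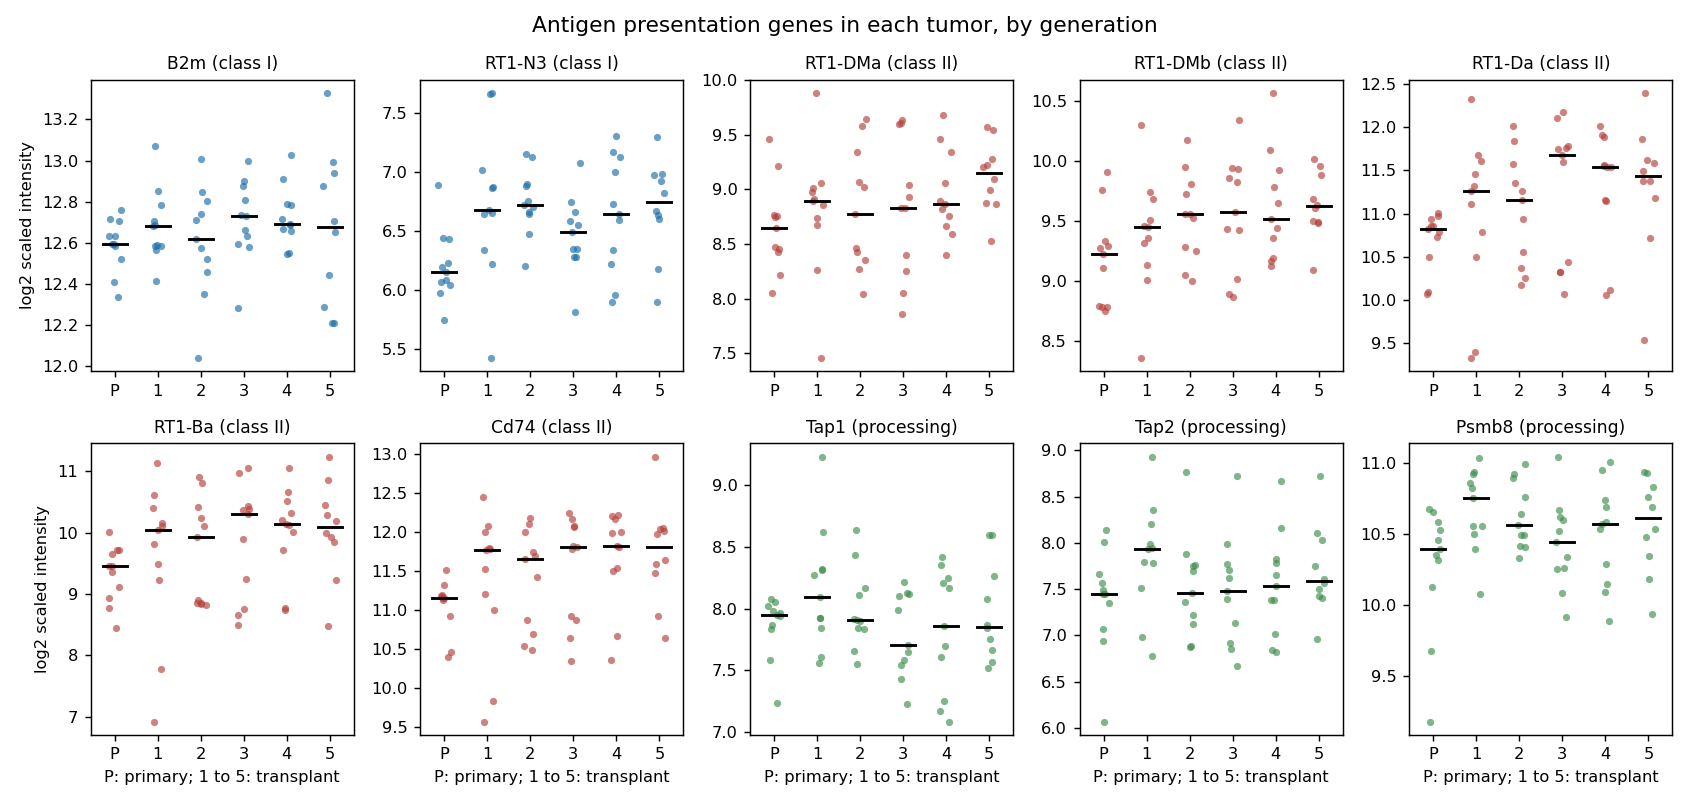
Log2 scaled intensity (vertical axis) of the 10 genes in each of 65 tumors, by generation on the horizontal axis (P for primary, 1 to 5 for the transplants); each point is 1 array and each black line a median. RT1-Ba reaches down to 6.92 in transplant 1, and RT1-Da, RT1-Ba and Cd74 spread more widely in each transplant generation than in the primary tumors.

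Among the class I genes RT1-N3 rose. Its log2 intensity had a lowest value of 5.43, a median of 6.66 and a highest value of 7.67 over 54 transplants, against 5.74, 6.15 and 6.89 over 11 primary tumors. The groups overlapped, with 15 of 54 transplants above the highest primary tumor. The difference was 0.46 ± 0.10 on the log2 scale (SE, 1.38-fold), with a limma adjusted p of 0.00289, and the transplants of a series averaged higher than its primary tumor in 10 of 11 series. In series 34, the remaining one, the difference was -0.003. With 1 difference a series in place of 65 arrays the limma adjusted p was 0.0221.

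The RT1-N3 difference was positive at each transplant and passed at 3 of the 5. The differences from primary were 0.53, 0.54, 0.27, 0.43 and 0.53 at transplants 1 to 5, with limma adjusted p-values of 0.186, 0.0196, 0.280, 0.0400 and 0.00768. At transplant 2 it was higher than the primary tumor in 11 of 11 series, and at transplant 5 in 9 of 10. Its slope over transplants 1 to 5 was -0.01 ± 0.03 per transplant (SE, limma adjusted p = 0.882). The F test over generations called RT1-N3 alone of the 10 genes (limma adjusted p = 0.0232), while 4.79% of all genes passed it. The probe set is dim, with a mean of 6.58 against the filter limit of 6.35, and the rat complex holds near copies of this gene. Another RT1-N gene, RT1-N2, had a difference of 0.05 ± 0.23 over the transplants (SE, limma adjusted p = 0.918). How much of the RT1-N3 signal comes from another RT1-N copy was not tested.

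B2m did not pass. Over the transplants its lowest, median and highest log2 values were 12.04, 12.68 and 13.33, against 12.34, 12.59 and 12.76 in the primary tumors. The difference was 0.09 ± 0.07 (SE, limma adjusted p = 0.451), with a 95% interval from -0.05 to 0.24, and it was positive in 8 of 11 series. Its SD over the 65 arrays was 0.22, against a median of 0.33 over all genes. A second B2m probe set gave 0.20 ± 0.13 (SE, limma adjusted p = 0.348) and correlated with the first at only 0.404 across the arrays.

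The class II genes had the largest differences of the 3 classes by median, and 1 of the 5 passed the test. RT1-DMb had a lowest value of 8.36, a median of 9.52 and a highest value of 10.57 over the transplants, against 8.75, 9.23 and 9.91 in the primary tumors. It rose by 0.37 ± 0.12 (SE, 1.29-fold, limma adjusted p = 0.0394) and was higher in the transplants of 9 of 11 series, the exceptions being series 13 at -0.46 and series 42 at -0.05. The call was close to the threshold: with 1 value a series the adjusted p was 0.0841, and leaving out any one of series 10, 17, 19, 25R, 32, 33, 34 and 36 took it to between 0.0621 and 0.106. Its partner RT1-DMa differed by 0.24 ± 0.13 (SE, limma adjusted p = 0.247) and was higher in 9 of 11 series.

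Cd74, RT1-Da and RT1-Ba had larger differences than RT1-DMb but also wider spreads, and none of them passed. Cd74 had a lowest value of 9.57, a median of 11.77 and a highest value of 12.96 over the transplants, against 10.40, 11.16 and 11.52 in the primary tumors. Its difference was 0.47 ± 0.20 (SE, limma adjusted p = 0.126). RT1-Da differed by 0.48 ± 0.22 (SE, limma adjusted p = 0.142) and RT1-Ba by 0.50 ± 0.26 (SE, limma adjusted p = 0.218), and a second RT1-Ba probe set gave 0.52 ± 0.22 (SE, limma adjusted p = 0.128). The 2 RT1-Ba probe sets correlated at 0.887. These 3 genes reached above the highest primary tumor in 35 of 54 transplants for Cd74, 37 for RT1-Da and 30 for RT1-Ba, and fell below the lowest primary tumor in 4, 4 and 2.

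Among the processing genes none passed. Psmb8 came nearest, with 9.89, 10.56 and 11.05 as the lowest, median and highest log2 values of the transplants, against 9.18, 10.40 and 10.68 in the primary tumors. Its difference was 0.30 ± 0.10 (SE, limma adjusted p = 0.0609). With each series left out in turn, the estimate ran from 0.19 to 0.35 and the limma adjusted p from 0.0330 to 0.231. Psmb8 passed without series 34 (0.0330) or series 36 (0.0343). With 1 value a series its limma adjusted p was 0.241. Tap2 differed by 0.23 ± 0.14 (SE, limma adjusted p = 0.289). Tap1 differed by 0.09 ± 0.12 (SE, limma adjusted p = 0.692), and without series 42 its estimate was -0.04. A second Tap1 probe set lay at the floor on 50 of 65 arrays and was not tested.

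**Figure D2:**
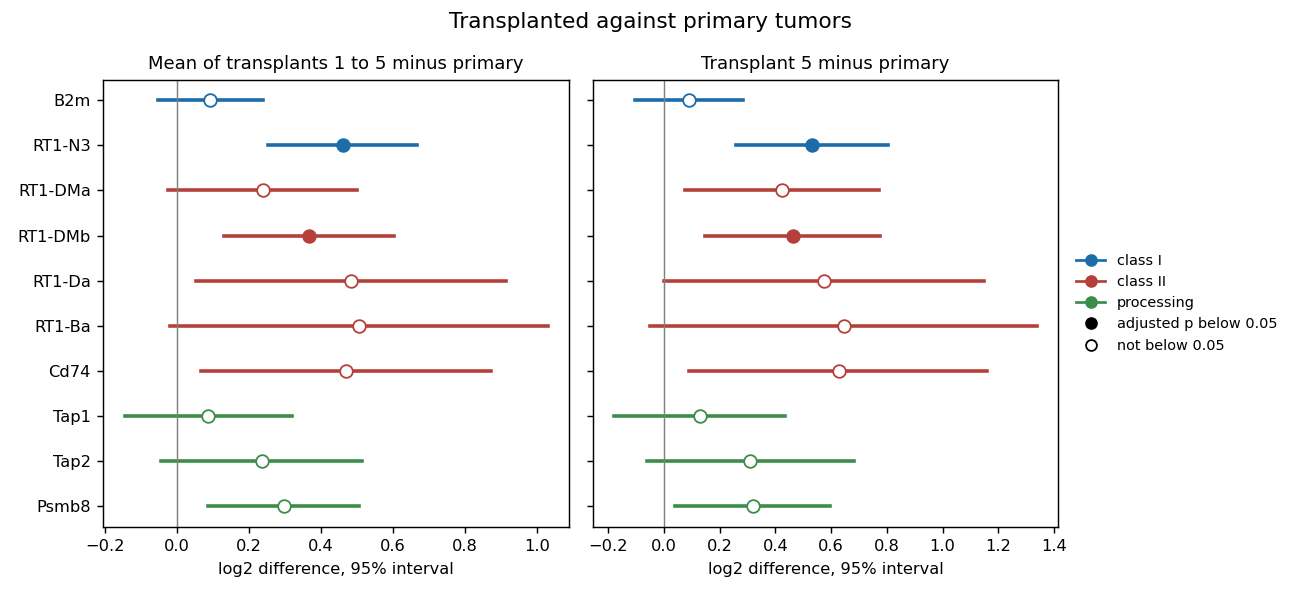
Log2 difference from the primary tumors (horizontal axis, with 95% limma intervals) of the mean over transplants 1 to 5 on the left and of transplant 5 on the right, for each gene on the vertical axis, coloured by class; filled points passed an adjusted p of 0.05. In both panels the filled points are RT1-N3 and RT1-DMb, and the intervals of RT1-Da, RT1-Ba and Cd74 are the widest.

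Taken generation by generation, all comparisons use the same primary tumors, so their values are set side by side without a test between them. The class II median difference was 0.27, 0.35, 0.46, 0.60 and 0.57 at transplants 1 to 5. The processing median was 0.41, 0.14, 0.10, 0.17 and 0.31 over the same transplants, and the class I median was 0.31, 0.28, 0.19, 0.29 and 0.31. At transplant 1 no member passed, and neither did any of the 8499 genes (0% called by limma), while 584 genes and 3 members, RT1-N3, Tap2 and Psmb8, had an unadjusted p under 0.05. At transplants 2, 3 and 4 the genes called were 1, 0 and 1 of 10, with RT1-N3 the one called, where 1.68%, 3.04% and 6.28% of all genes passed.

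At transplant 5, RT1-N3 and RT1-DMb passed, 2 of 10 genes where 14.1% of all genes did. RT1-DMb was 0.46 ± 0.16 higher (SE, limma adjusted p = 0.0382), and without the low-median array of series 32 it was 0.43 higher with an adjusted p of 0.0704. Without series 17, 19, 32, 34 or 36 its adjusted p lay between 0.0550 and 0.104. The RT1-DMa difference at transplant 5 was 0.42 ± 0.17 (SE, limma adjusted p = 0.0880). It passed in 1 of 25 alternatives, that without series 25L (0.0403). With each series left out in turn the limma adjusted p reached 0.193, and with 1 value a series it was 0.116. Cd74 differed by 0.63 ± 0.27 (SE, limma adjusted p = 0.102), and by 0.52 without the low-median array (adjusted p = 0.217).

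Across transplants 1 to 5 no gene of the 10 had a slope that passed, and 4.82% of all genes did. That background of 410 genes was 72 without the low-median array of series 32, and 7, 4 and 3 without series 32, 34 or 36, while no gene of the 10 passed in any of these fits. The 5 class II slopes were all positive, between 0.06 and 0.11 log2 per transplant, and the 3 processing slopes were all negative, between -0.05 and -0.03. The limma adjusted p-values of all 10 slopes lay between 0.268 and 0.882. None of these slopes had an unadjusted p under 0.05, beside 22.1% of all genes.

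The spread among tumors of 1 generation was wider in the transplants for several of these genes. The SD of RT1-Da was 0.64 to 0.93 in the 5 transplant generations, against 0.33 in the primary tumors, and that of Cd74 was 0.62 to 0.91, against 0.34. For RT1-Ba it was 0.72 to 1.24 in the transplant generations and 0.47 in the primary tumors. The median ratio of transplant to primary SD was 2.29 for RT1-Da, 1.91 for Cd74 and 1.83 for RT1-Ba, against 1.13 for all genes. Psmb8 went the other way at 0.675, with a primary SD of 0.46. Of the 10 genes, 5 (B2m, RT1-Da, RT1-Ba, Cd74 and Tap1) had a lower SD in the primary tumors than in any transplant generation, as did 30.5% of all genes. This was noticed in the values and was not tested.

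Single lines moved in different directions for the class II genes. In series 32, Cd74 was 12.96 at transplant 5, against 10.40 in its primary tumor, and RT1-Ba was 11.24 against 8.45. The lowest of the 5 transplants of series 32 was at 11.69 for Cd74. Series 25L went down first, with RT1-Ba at 6.92 and Cd74 at 9.57 in transplant 1, against 10.01 and 11.13 in the primary tumor. At transplant 5 its Cd74 was 12.01, the highest value of that series. In series 10, Cd74 was 9.84 at transplant 1 and 12.22 at transplant 4, against 11.15 in the primary tumor. The transplant mean of Cd74 minus its primary tumor was 1.79 in series 32 and 1.10 in series 42, and it was below 0 in series 10, 13, 25L and 33, at -0.30, -0.44, -0.10 and -0.01.

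Of the processing genes, Tap2 and Psmb8 differed most in series 25L and 42, and Tap1 most in series 42. In series 42, RT1-Da, RT1-Ba and Cd74 rose as well, by 1.30, 1.40 and 1.10, while RT1-DMa had 0.09 and RT1-DMb -0.05. In series 42 the transplants averaged 8.59 for Tap1, 8.76 for Tap2 and 10.70 for Psmb8, against 7.23, 7.57 and 9.67 in its primary tumor. In series 25L the transplants averaged 7.51 for Tap2 and 10.53 for Psmb8, against 6.07 and 9.18 in the primary tumor, the lowest value of each gene on any array. In the other 9 series the difference lay between -0.57 and 0.54 for Tap2 and between -0.20 and 0.41 for Psmb8.

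The next comparison asked whether the lines differ in these genes over all generations. The F test among series called 5 of 10 genes, a smaller share than the 83.5% of all genes that it called. The limma adjusted p-values were 2.13e-05 for RT1-N3, 7.25e-05 for Tap2, 0.000495 for RT1-DMa, 0.0066 for RT1-DMb and 0.0348 for Tap1. The share of variance that series accounted for was 20.7% to 24.6% for Psmb8, B2m, Cd74, RT1-Da and RT1-Ba, and 42.7% to 46.7% for RT1-DMa, RT1-N3 and Tap2, against a median of 43.0% over all genes. For Cd74 generation accounted for 9.97%, and 66.6% was left over after both factors, against a median of 49.3% over all genes. This remainder includes any course over the generations that differs from series to series.

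Setting each series against the mean of the other 10 gave 8 calls among the 10 genes, 5 of them in series 42. There, Tap2 was 1.08 ± 0.18 higher (SE, limma adjusted p = 9.1e-07), RT1-DMa 0.75 ± 0.17 (1.43e-04), RT1-N3 0.70 ± 0.13 (1.04e-05), Tap1 0.47 ± 0.15 (0.00617) and RT1-DMb 0.42 ± 0.15 (0.0153). Series 42 is the line with almost no epithelial marker signal, and 59.7% of all genes were called in it, 34.1% upward. Summed epithelial marker intensity there ran from 773.5 to 835.7, against medians of 10000 to 21570 in the other series. The lowest arrays of series 34 and 32 came near these values, at 951 and 1385. What part these markers have in the 5 calls was not tested.

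The other 3 calls lay in 3 series. RT1-N3 was 0.59 ± 0.13 lower in series 32 (SE, limma adjusted p = 7.62e-04), where 30.9% of all genes were called. RT1-DMa was 0.47 ± 0.17 lower in series 19 (limma adjusted p = 0.0371; 22.7% of all genes), and Psmb8 was 0.38 ± 0.14 higher in series 33 (limma adjusted p = 0.0431; 19.4% of all genes). In the remaining 7 series none of the 10 genes passed, where the share of all genes called was 11.1% in series 10, 15.9% in series 13, 15.6% in series 17, 12.6% in series 25L, 7.35% in series 25R, 20% in series 34 and 12.2% in series 36. Series differed in their slopes over the transplants for none of the 10 genes, and for 24.3% of all genes. Tap2 had the lowest limma adjusted p there, 0.0597, and 4 of the 10 genes had an unadjusted p under 0.05, beside 41.3% of all genes.

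**Figure D3:**
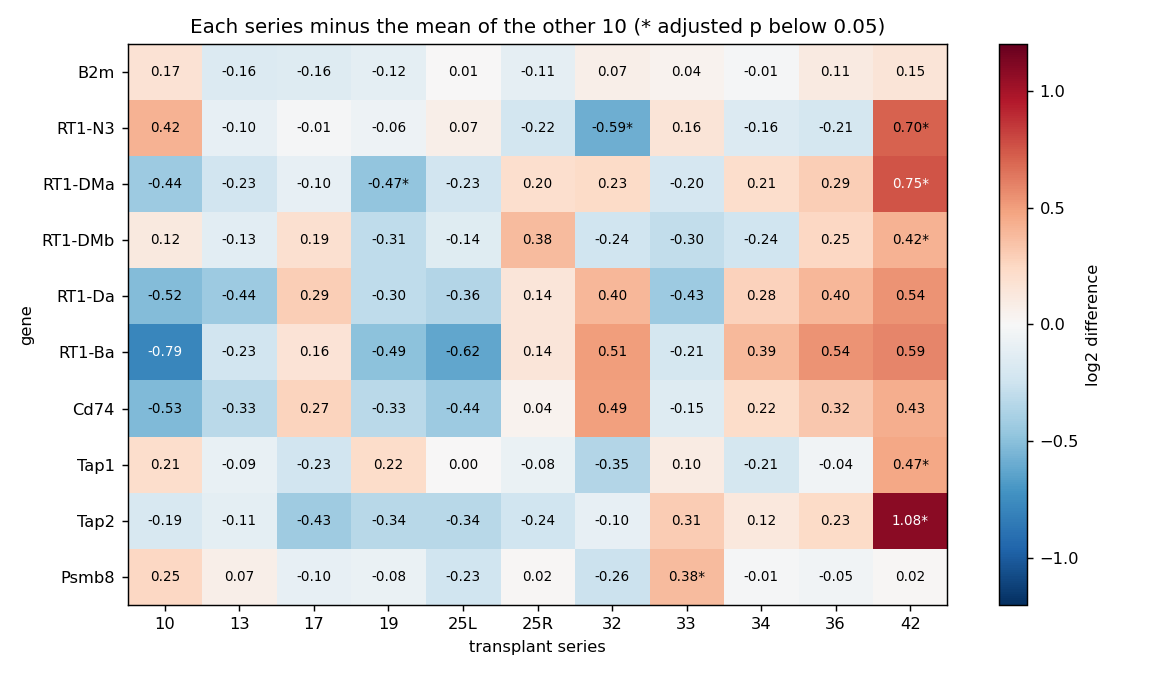
Log2 difference between each series (horizontal axis) and the mean of the other 10 series, for each gene (vertical axis), red for higher and blue for lower; asterisks mark an adjusted p under 0.05. Series 42 holds 5 of the 8 asterisks, and RT1-Da, RT1-Ba and Cd74 carry none in any series.

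The class II genes and the processing genes formed 2 groups by how they varied together across the 65 arrays. The arrays share lines and are not independent, so the correlations are given as descriptions. Within class II, Pearson's r ran from 0.643 to 0.971 over 10 pairs, with a median of 0.770. The highest value was between RT1-Da and Cd74, whose genes lie on different chromosomes. Within the processing genes r ran from 0.541 to 0.688, and between the class I and the processing genes from 0.382 to 0.618. Between class II and processing genes r ran from -0.0785 to 0.448 over 15 pairs, with a median of 0.0771. Between class I and class II genes it ran from -0.093 to 0.331, with a median of 0.271. B2m correlated with the class II genes at 0.256 to 0.331 and with the processing genes at 0.382 to 0.409. With the mean of each series removed the medians were 0.798 within class II, 0.720 within the processing genes and 0.131 between them.

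RT1-DMa and RT1-DMb, neighbours on the chromosome and subunits of 1 dimer, correlated less with Cd74 (0.76 and 0.64) than RT1-Da did. Tap1 and Psmb8, also neighbours and close to the class II genes on the same chromosome, correlated with each other at 0.688 and with RT1-Da at -0.02 and -0.08. Tap2, next to Psmb8, correlated more with the class II genes, from 0.228 with RT1-Da to 0.448 with RT1-DMa. With series means removed these 2 values were 0.131 and 0.217. RT1-N3 correlated with Tap1 at 0.62 and with Psmb8 at 0.56, but with B2m at only 0.14.

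**Figure D4:**
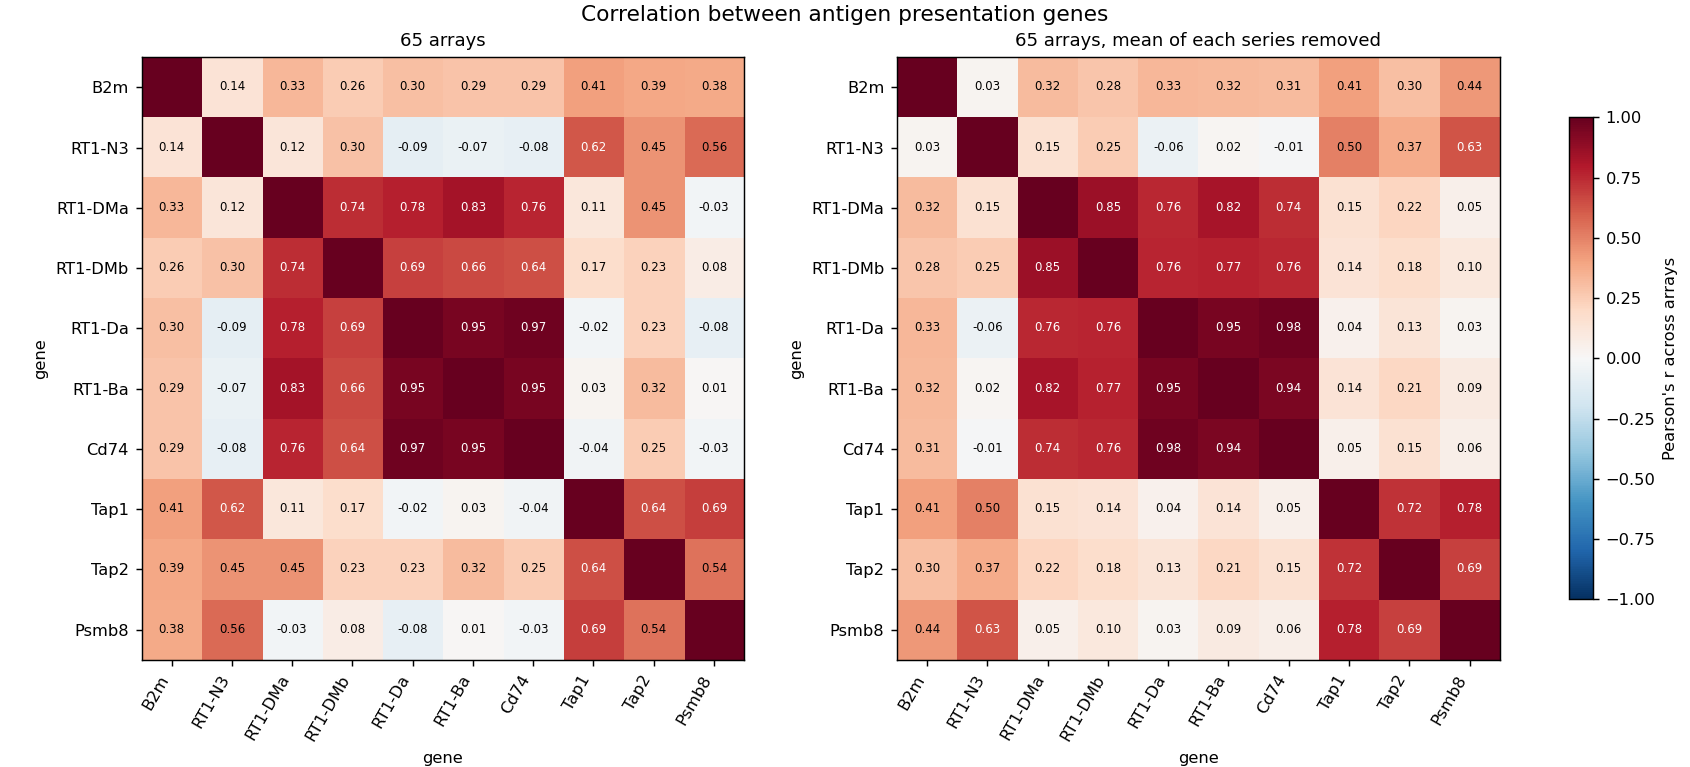
Pearson's r between each pair of the 10 genes (both axes) across 65 arrays on the left, and after the mean of each series was removed on the right; red is positive and blue negative. On the left the 5 class II genes form a block with r from 0.643 to 0.971, and the 3 processing genes form another. Between these 2 blocks r reaches 0.448, for Tap2 with RT1-DMa.

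To find which other genes followed each class, values were standardised over the arrays and averaged to a profile per class. The genes most like the class II profile were RT1-Db1 (r = 0.950) and RT1-Bb (0.947), which encode class II beta chains, then C1qa (0.838), Lyz2 (0.831) and C1qc (0.826), the macrophage genes for complement C1q chains and for lysozyme. After the mean of each series was removed the same 5 genes led. The genes most like the processing profile were Psmb9 (0.849), which lies between Tap1 and RT1-DMb and encodes another immunoproteasome subunit, Psme2 (0.750), a proteasome activator subunit, Stat2 (0.742), a transcription factor of interferon signalling, Psmb10 (0.734), a further immunoproteasome subunit, and Bst2 (0.729), an interferon-induced gene. With series means removed, Psmb9, RT1-A, Psmb10, Fbxo7 and Psme1 led, from 0.872 to 0.728. The class I profile, which rests on only 2 weakly correlated genes, was followed most closely by Ifi27l2b (0.702), Bst2 (0.662), Oasl (0.653), Ins1 (0.641) and Fbxo7 (0.635), and with series means removed by RT1-T24-4, RT1-A, Ifi27l2b, Ins1 and Egr4, from 0.731 to 0.669.

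The class II profile varied together with markers of macrophages and dendritic cells. Across the 65 arrays the correlation with the mean of 18 such markers was 0.821 (Spearman's rho 0.844, and 0.820 without the 2 arrays farthest from the median), and it was above 0 within each of the 10 series with 6 arrays, from 0.351 to 0.906. Of 28 listed markers 21 were measured, and none of them was at the floor on every array. The summed marker intensity was 5027 to 22800 in transplant 1 and 8131 to 25210 in transplant 5, with medians of 9215 and 11750, against 6377 to 20620 and a median of 8479 in the primary tumors. Of the 18 markers tested, 16 were higher in transplants than in primary tumors, with a median of 0.24, and only Fcgr2b, an Fc receptor gene, passed (0.68 ± 0.21, SE, limma adjusted p = 0.0354), though not without series 32 (0.0732) or series 34 (0.0509). That is 5.56% of the markers, beside 9.5% of all genes. The Fcgr2b probe set is dim, with a median log2 of 6.46, and was at the floor on 13 of the 65 arrays. The part of these cells in the class II values was not tested.

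Correlations with the other lists were computed over the same 65 arrays. The class II profile had 0.415 with T and NK cell markers, and 0.473 with series means removed. With epithelial markers it had -0.436, and -0.29 with series means removed. The processing profile had 0.0018 with epithelial markers over all arrays (Spearman's rho 0.328) and 0.381 with series means removed, and it was above 0 within 9 of 10 series, with a median of 0.717. Of 18 T and NK cell markers measured, 13 were at the floor on no array, among them Cd3e, Cd4, Cd8b and Cd2, whose lowest value was 7.56. The other 5 were at the floor on some arrays, Cd3d on 50 of 65, Cd8a on 48, Cd3g on 6, Klrd1 on 3, and Ifng, the gene for interferon gamma, on 20 and never above 6.72. Of the B cell genes, Cd79b was at the floor on 60 arrays and Cxcr5 on none. In the transplant 5 array of series 32 the summed T and NK marker intensity was 9276, and the next highest array had 4592. The class I and processing profiles correlated with each other at 0.716. With the mean of 37 interferon-related genes the correlation was 0.486 for the processing profile, 0.469 for the class I profile and 0.034 for the class II profile, and with macrophage markers the processing profile had 0.0045. With series means removed the interferon values were 0.577, 0.663 and 0.229.

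**Figure D5:**
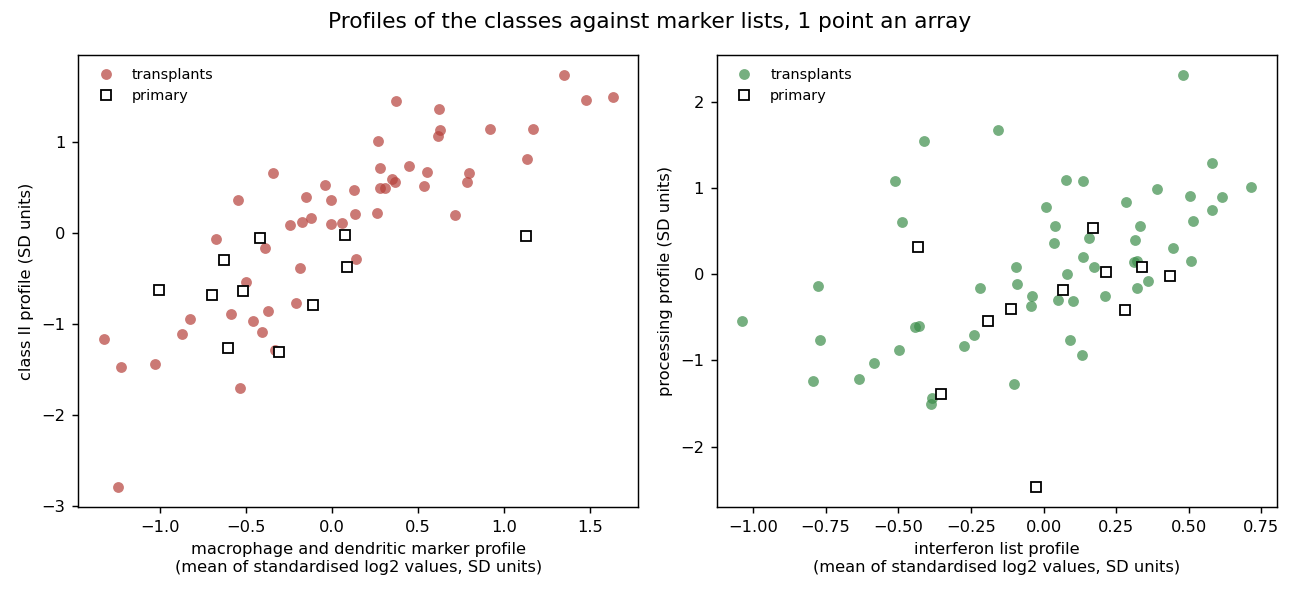
Mean standardised level of the class II genes against that of the macrophage and dendritic markers (left, r = 0.821) and of the processing genes against that of the interferon-related genes (right, r = 0.486), 1 point for each of 65 arrays, with axes in SD units; filled circles are transplants and open squares primary tumors. The class II points scatter less about a rising line than the processing points do.

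Between transplants and primary tumors, where 9.5% of all genes passed, 2 of 13 further class I and related genes did, or 15.4%. Of these 1 rose and 1 fell: RT1-T24-4, another class I gene, by 0.29 ± 0.09 (SE, limma adjusted p = 0.0304, and 0.0524 without series 32) and Cd1d1, which presents lipids, with -0.38 ± 0.11 (SE, limma adjusted p = 0.0163). The median difference of these 13 class I and related genes was 0.04. None of 11 further class II pathway genes and none of 13 further processing genes passed, with medians of 0.10 and 0.03 against 0.01 over all genes. Among the 11, RT1-Db1 had 0.60 ± 0.22 (SE, limma adjusted p = 0.0665) and RT1-Bb 0.55 ± 0.25 (SE, limma adjusted p = 0.144). Ciita, the master activator of class II transcription, was 0.45 ± 0.16 higher at transplant 5 (SE, limma adjusted p = 0.0457), a value picked out after it was seen. Without the low-median array of series 32 it was 0.36 higher there (adjusted p = 0.124), and over all transplants it had 0.28 (adjusted p = 0.117).

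Of 37 interferon-related genes 1 rose and 2 fell in the transplants, 8.11% of the list against 9.5% of all genes. Cxcl10, a chemokine gene induced by interferon gamma, rose by 0.44 ± 0.12 (SE, limma adjusted p = 0.0155). Ifngr2, a chain of the interferon gamma receptor, had -0.44 ± 0.07 (SE, limma adjusted p = 1.14e-04) and Parp14 -0.46 ± 0.12 (SE, limma adjusted p = 0.00935). Over transplants 1 to 5 Irf8, a transcription factor of myeloid cells, rose by 0.17 per transplant, while Oas1a changed by -0.20 and Parp9 by -0.09 per transplant (limma adjusted p = 0.0449, 0.0467 and 0.0427). These 3 slopes are 8.11% of the list, beside 4.82% of all genes, and none of the 3 passed without the low-median array of series 32 (adjusted p = 0.123, 0.0909 and 0.0614) or without series 32, 34 or 36. For the transplants against the primary tumors the list median was 0.01, the same as over all genes. For the slope it was -0.05, against 0.004 over all genes, and 10 of 37 slopes were positive, beside 55% of all genes.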

How the data were processed

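Rat mammary tumor RNA was measured on 65 Affymetrix arrays, from 6 µg of total RNA each, per the labels. The deposited table holds linear probe set intensities between 1 and 12011. The sources used here do not give how the authors summarised and normalized them. Groups came from the sample titles. Each array was scaled to a median of 162, the pooled 10th percentile (39.8) served as a floor, and the values were then put on the log2 scale. Each gene was read from its brightest probe set. Probe sets with a mean log2 under 6.35, the lowest 25%, were left out, which left 8499 genes and all 10 described here (12 of their 13 probe sets). Gene names came from the platform annotation, where 12783 probe sets had 1 symbol, 312 several and 2771 none. Of the first, 12748 matched the current annotation. The number of arrays limits the precision.

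Tests used limma 3.58.1 in R 4.3.3 (lmFit and eBayes, two-sided, Benjamini-Hochberg over all genes tested, threshold 0.05) with generation and series as factors. The series number pairs the arrays by the design, in which transplants descend from 1 tumor. As a check, the most correlated other array was of the same series for 50 of 65 arrays, with a mean correlation of 0.376 within and -0.037 between series. The p-values measure the spread between these tumors, which within a series descend from each other. The procedure was tested on simulated data with independent noise on each array. Such data cannot show its error rate for tumors that descend from each other. Named genes were the 10 members, pathway genes that passed for the transplants or the slope (at most 6 per list) and the 5 genes most like each class profile. The members, lists and comparisons were chosen with earlier results of these data known. The alternatives were the normalization, the floor, the filter, the probe set rule, the block, array weights, an RNA quality covariate (the ratio of Gapdh 3' to 5' probe sets), 1 value a series and leaving out each series. Leaving out the low-median array was added after seeing the data.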

Additional observations from a re-analysis of the deposited data

Results flagged for a closer look

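Both values that stood apart from their group lay in second probe sets that the tests by gene do not use, and in transplant 5, which has 10 arrays. The second RT1-Ba probe set was lowest in series 33, at a log2 intensity of 8.312, where the next array had 9.459 and the highest 10.69. The first RT1-Ba probe set was also lowest in that tumor, at 8.48. The second Tap1 probe set was highest in series 32, at 6.267, with the next array at 5.597 and the lowest at the floor of 5.314. That array is the one with the low median, and its value on the first Tap1 probe set was 7.75, below the transplant 5 median of 7.85. About 1 group in 20 is picked out in this way by chance.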

How the results depend on the processing

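The fit without the replicate block, in which series is no factor, called none of the 10 genes for the transplants (0, against 2), transplant 2 (0, against 1), transplant 4 (0, against 1), transplant 5 (0, against 2) or any generation (0, against 1). RT1-N3 then had 0.45 (limma adjusted p = 0.0933) and RT1-DMb 0.36 (0.210) for the transplants, with 85 of 8499 genes called in place of 807, of which 20% were higher in place of 46.7%. RT1-N3 kept its calls for the transplants and transplant 5 under all other alternatives that tested it, and RT1-DMb lost its call in 12 of 25 alternatives for each. For the transplants, 1 gene was called with no rescaling, with the filter at the median (which by construction leaves out RT1-N3), with 1 value per series and with the Gapdh covariate, and 1 to 2 when each series was left out. At transplant 2, 0 were called with the filter at the median, array weights and the Gapdh covariate, and 0 to 1 without a series. At transplant 4, 0 were called with no rescaling, 1 value per series, the Gapdh covariate and the filter at the median, 2 with array weights, and 0 to 1 without a series. At transplant 5, 1 was called with quantile normalization, no rescaling, the filter at the median, 1 value per series, array weights, the Gapdh covariate and without the transplant 5 array of series 32, and 1 to 3 without a series. For any generation, 0 were called with the Gapdh covariate, no rescaling and the filter at the median, and 0 to 1 without a series. Among series, array weights called 10 (against 5), 8 slopes (against 0) and 24 single-series values (against 8), though the weights stopped before converging. Without a series the count among series was 3 to 6, with 3 without series 42. For slope differences it was 0 to 2 without a series, and 1 with no rescaling. Counts for transplant 1, transplant 3 and the slope were 0 under all 25 alternatives. Signs turned for Tap1 over the transplants without series 42 (-0.0412, of a range to 0.139 over the series left out) and for B2m at transplant 5 with no rescaling (-0.0246), where the median of all genes shifted to -0.09. Of all genes called for the transplants with no rescaling, 28.7% were higher, and with 1 value per series 33.3% of 135 were. The median r within class II stayed between 0.724 and 0.770. The causes were not tested.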

Other observations

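Outside the pathway, 2 of 14 epithelial markers, or 14.3%, fell in the transplants against the primary tumors, where 9.5% of all genes passed. These were Cldn3 with a log2 difference of -1.75 ± 0.31 (SE, limma adjusted p = 1.85e-04) and Muc1 with -0.68 ± 0.22 (SE, limma adjusted p = 0.0385), and 9 of 14 had a slope below 0 that passed, where 4.82% of all genes passed. Muc1 did not pass for the transplants without series 32, 34 or 36 (adjusted p between 0.0691 and 0.0753). Without the low-median array of series 32, 2 of the 9 slopes passed, those of Cldn3 (-0.38 per transplant, limma adjusted p = 0.0422) and Muc1 (-0.27, 0.0348), beside 0.847% of all genes, and without series 32, 34 or 36 none passed. Among the 18 macrophage and dendritic markers tested, 2 slopes passed, or 11.1%, beside 4.82% of all genes. Cd14, a co-receptor for bacterial lipopolysaccharide, fell by 0.20 per transplant (limma adjusted p = 0.0335), while Lyz2 rose by 0.20 (limma adjusted p = 0.0480). Without that array these 2 slopes did not pass (adjusted p = 0.0843 and 0.10). In transplant 5, Laptm5, Fcer1g and Fcgr2b were higher than in primary tumors by 0.84, 0.54 and 1.07, and Cd14 was lower, with a difference of -0.90 (limma adjusted p between 0.00973 and 0.0480). That is 4 of the 18 markers, or 22.2%, where 14.1% of all genes passed. Fcgr2b was at the floor on 13 of 65 arrays. Without that array Fcgr2b and Cd14 still passed (1.11 and -0.75, adjusted p = 0.0116 and 0.0408), and Laptm5 (0.62, 0.0913) and Fcer1g (0.48, 0.101) did not. Of 12 T and NK cell markers tested, 2 passed at transplant 5, or 16.7%, beside 14.1% of all genes. These were Il2rg and Lck, higher by 1.35 and 0.66 (limma adjusted p = 0.0156 and 0.0463). Without that array they were higher by 1.06 and 0.37 (limma adjusted p = 0.0532 and 0.182). None of the 12 then passed, beside 11.1% of all genes.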
